A study of Homo sapiens with 8 samples.

Results

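Adding EGF to keratinocytes whose amphiregulin was being silenced was examined across all expressed genes, by setting the 2 libraries of cells given tetracycline and EGF against the 3 libraries of cells given tetracycline alone. Of the 8 libraries of the study these 5 were chosen by their column names, and 12567 of the 21510 genes listed passed the filter of an RPKM (reads per kilobase of transcript, scaled to library size) of at least 1 in at least 2 libraries. The cells were N/TERT-2G, an immortalised human keratinocyte line, and every group, the control included, carried a short hairpin RNA against AREG, the amphiregulin gene, under tetracycline control. They were grown in serum-free keratinocyte medium with 0.4 mM CaCl2 and collected while subconfluent. Tet cells received 1 µg/ml tetracycline for 60 h, Tet+EGF cells received 1 µg/ml tetracycline and 20 ng/ml EGF for 60 h, and control cells received neither. Tet and Tet+EGF therefore differed by their labels in EGF and, for 2 of the 3 Tet libraries, in batch. The column names number the batches and do not say what they were. Control values (n = 3) are given beside some genes as the level without induction of the hairpin. The labels do not say whether the line was clonal or whether the replicates came from separate cultures, and p-values cover no more than the spread among these libraries.

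EGF and amphiregulin are ligands of the EGF receptor, a tyrosine kinase that signals through RAS, RAF, MEK and ERK and through PI3 kinase and AKT. ERK activity induces early transcription factors and then its own inhibitors, among them dual-specificity phosphatases and Sprouty proteins. In epidermis the receptor is most active in basal cells and is known for sustaining proliferation and migration and for restraining differentiation.

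KRT5, KRT14 and the other keratinocyte markers, 12 of 12, were above 1 RPKM in each of the 8 libraries, with a summed level of 29523 to 34232 in Tet and 18800.1 to 19173 in Tet+EGF. AREG, the hairpin target, was at 316, 202 and 189 RPKM in the control libraries, 6.63, 16.7 and 16.2 RPKM with tetracycline alone and 20.9 and 17.4 with EGF. It was low in all 5 tetracycline libraries, and its log2 fold change with EGF was 0.81 (SE 0.47, adjusted p = 0.288), which did not pass the threshold. The AREG value was 1.46 against the batch 2 Tet library alone and -0.49 in the fit without it (adjusted p = 0.0296). In the latter fit the batch difference came from the control libraries alone. With no batch term, AREG was 0.21 higher in log2 than in Tet replicates 2 and 3. Both Tet+EGF libraries were above all 3 Tet libraries, so the sign turned with the batch term. FOXM1, a mitotic transcription factor, was at 23.9, 37.4 and 36.5 RPKM in control, 2.48, 3.85 and 3.999 RPKM with tetracycline alone and 2.02 and 1.72 with EGF. The change of FOXM1 with EGF was -0.32 (SE 0.11, adjusted p = 0.0854) in log2 and did not pass either. Values are listed in replicate order throughout. Tet replicate 1 and both Tet+EGF libraries were labelled batch 2, and Tet replicates 2 and 3 batch 1.

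With EGF, 1234 of 12567 genes (9.82%) were called higher and 1150 (9.15%) lower than with tetracycline alone, by limma on log2(RPKM + 0.5) with group and batch as terms and a Benjamini-Hochberg adjusted p under 0.05, and each adjusted p below comes from that fit. The change was at least 2-fold for 351 of those called higher and 440 of those called lower, and the median log2 fold change of all genes was 0.02. Both Tet+EGF libraries lay above all 3 Tet libraries for 4045 genes (32.2%) and below them for 2545 (20.3%). Among called genes, 1063 of 1234 and 961 of 1150 were separated in this way. Because 1 Tet library shares the batch of the EGF libraries, the comparison was also made against that library alone and without it. In the fit without it, the batch difference was estimated from the control libraries alone. Values given as without Tet replicate 1 are therefore not plain differences from Tet replicates 2 and 3. Both comparisons use libraries of the main fit and are not independent of its calls. Of the called genes, 1023 higher and 1000 lower passed with the same sign without Tet replicate 1, and 20 were not tested in that fit. Against the batch 2 Tet library alone, 152 called genes were not tested and none of the others changed sign. Passes are not counted for that comparison, since Tet is 1 library in it. Both fits share the Tet+EGF libraries. Without the batch term 635 genes were called higher and 528 lower. The filter was passed through the Tet+EGF libraries alone by 66 genes, of which 47 were called higher, and through Tet libraries alone by 205, of which 118 were called lower. Such genes could differ in 1 direction only. The gene lists below hold at most 4 of the former and 3 of the latter each. Each list's shares called higher and lower are to be read beside the 9.82% and 9.15% of all genes.

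**Figure D1:**
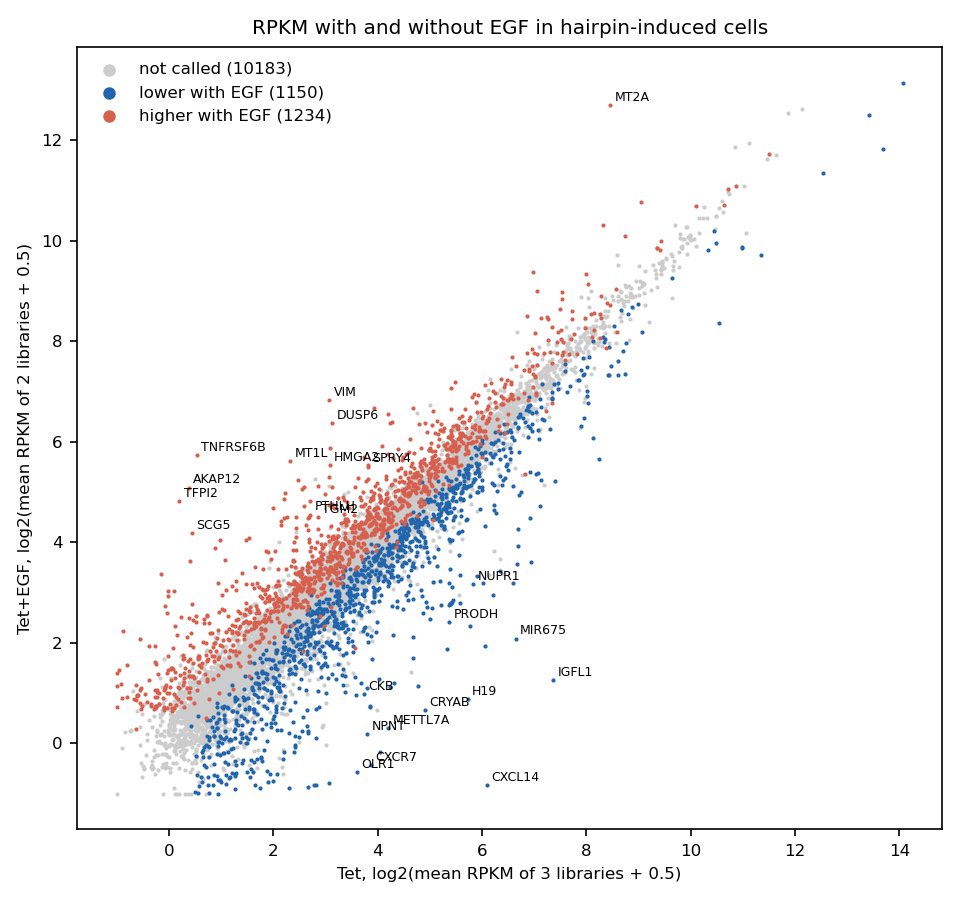
Each point is 1 of 12567 genes, with the mean RPKM of the 3 Tet libraries on the x axis and of the 2 Tet+EGF libraries on the y axis, both as log2(mean + 0.5). The 1234 genes called higher lie mostly above the diagonal band and the 1150 called lower mostly below it, and the 12 largest changes each way are named.

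**Figure D2:**
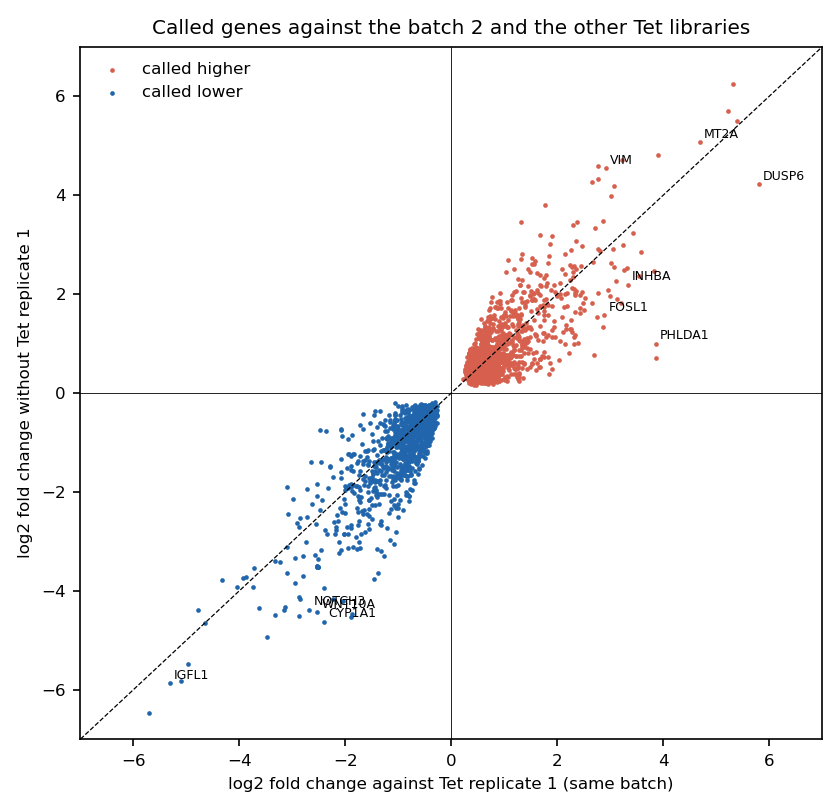
Log2 fold change with EGF of the called genes against the Tet library of the same batch (x axis) and with that library left out (y axis). Points on the dashed line have equal values, DUSP6 is at 5.80 and 4.23, and PHLDA1 at 3.86 and 1.00. No called gene with both values changes sign, but both values enter the fit that made the calls. The y values carry a batch difference taken from the control libraries. With no batch term, SOX9 and CCND1, called higher, had -0.89 and -0.63 against Tet replicates 2 and 3, and TSC22D3, called lower, 1.55.

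Genes with the largest changes included regulators of signalling, extracellular proteins and metal-binding proteins. The steepest rise was in AKAP12, a scaffold for protein kinases A and C, at 0.347, 0.962 and 1.11 RPKM with tetracycline alone and 33.2 and 33.7 with EGF. Both Tet+EGF libraries were far above all 3 Tet libraries and above the control libraries at 2.57, 9.93 and 10.3, and the log2 fold change was 5.64 (SE 0.24, adjusted p = 4.72e-05), 5.33 against the batch 2 Tet library and 6.26 without it. TFPI2, a secreted inhibitor of serine proteases, was at 0.169, 0.351 and 1.43 RPKM with tetracycline alone and 30.6 and 24.7 with EGF. Both Tet+EGF libraries were above the control libraries at 10.9, 21.9 and 24.5, with a log2 fold change against Tet of 5.43 (SE 0.37, adjusted p = 0.000254). TNFRSF6B, a soluble decoy receptor for Fas ligand, was at 0.912, 0.913 and 1.05 RPKM with tetracycline alone and 52.6 and 52.6 with EGF. All 3 Tet libraries lay close together near 1 RPKM, the control libraries were at 19.4, 32.3 and 24.8, and the log2 fold change with EGF was 5.39 (SE 0.18, adjusted p = 2.14e-05).

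SCG5, a chaperone of a prohormone convertase, was at 0.708, 0.546 and 1.31 RPKM with tetracycline alone and 17.4 and 17.9 with EGF, a log2 fold change of 4.21 (SE 0.33, adjusted p = 0.000399), or 4.81 without Tet replicate 1. VIM, the intermediate filament protein of mesenchymal and migrating cells, was at 14.5, 5.303 and 4.06 RPKM with tetracycline alone and 109.9 and 115 with EGF. Its Tet libraries differed among themselves, with the batch 2 library highest, and both Tet+EGF libraries were above the control values of 48.8, 50.1 and 53.8. The VIM log2 fold change was 3.46 (SE 0.41, adjusted p = 0.00188), 2.91 against the batch 2 Tet library and 4.55 without it. PTHLH, the parathyroid hormone-related peptide, was at 1.67, 7.57 and 8.93 RPKM with tetracycline alone and 24.2 and 21.6 with EGF, with Tet replicate 1 lowest and a log2 fold change of 3.36 (SE 0.13, adjusted p = 2.87e-05). TGM2, tissue transglutaminase, had a log2 fold change of 3.35 (3.99 without Tet replicate 1), and HMGA2, an architectural chromatin protein, one of 3.3 (4.34 without that library). With no batch term, TGM2 and HMGA2 had 1.27 and 2.32 against Tet replicates 2 and 3. HMGA2 stayed below 2 of the 3 control libraries, at 6.27, 8.91 and 8.69 RPKM with tetracycline alone and 47.4 and 44.6 with EGF against 18.3, 72.9 and 78.3 in control. TGM2 and PTHLH did not pass without the batch term.

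The steepest fall was in CXCL14, a chemokine of resting epithelium, at 28.8, 78.1 and 96.3 RPKM with tetracycline alone and 0.0740 and 0.0480 with EGF. The Tet+EGF libraries were also below the control libraries at 0.317, 0.632 and 1.33, and the log2 fold change was -5.96 (SE 0.30, adjusted p = 8.46e-05). IGFL1, a secreted member of the insulin-like growth factor-like family, was at 94.6, 195 and 203 RPKM with tetracycline alone and 2.03 and 1.75 with EGF. It fell below its control level of 14.6, 19.8 and 22.8, with a log2 fold change of -5.5 (SE 0.17, adjusted p = 1.94e-05). H19, an imprinted long non-coding RNA, was at 56.5, 50.7 and 50.4 RPKM with tetracycline alone and 1.17 and 1.505 with EGF, and was likewise below the control libraries at 30.6, 17.9 and 20.1. The log2 fold change of H19 was -5.13 (SE 0.17, adjusted p = 2.14e-05), and MIR675, whose hairpin lies inside H19, had -5.35. Reads of the 2 overlap, so MIR675 is not a separate measurement and says nothing of the mature microRNA.

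CXCR7, an atypical receptor for the chemokine CXCL12, was at 19.8, 11.4 and 11.5 RPKM with tetracycline alone and 0.168 and 0.313 with EGF, with a log2 fold change of -4.65 (SE 0.17, adjusted p = 2.81e-05). CRYAB, a small heat shock protein, was at 38.8, 25.4 and 24.98 RPKM with tetracycline alone and 1.02 and 1.13 with EGF, with a log2 fold change of -4.65 (SE 0.29, adjusted p = 0.000178). In both genes the libraries with EGF were close to or below the control libraries and all Tet libraries stood apart. The other large falls were in METTL7A, a methyltransferase-like protein (-4.15), NUPR1, a stress-induced chromatin protein (-3.96, -4.94 without Tet replicate 1), PRODH, which starts proline breakdown (-3.86), NPNT, the integrin ligand nephronectin (-3.82), OLR1, the receptor for oxidised low-density lipoprotein (-3.71, -4.49 without Tet replicate 1), and CKB, the brain-type creatine kinase (-3.67). These are log2 fold changes, and each passed the limma threshold. NUPR1 and CKB did not pass without the batch term. CXCR7, METTL7A and OLR1 passed the filter through the Tet libraries alone, so they could differ downward alone.

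**Figure D3:**
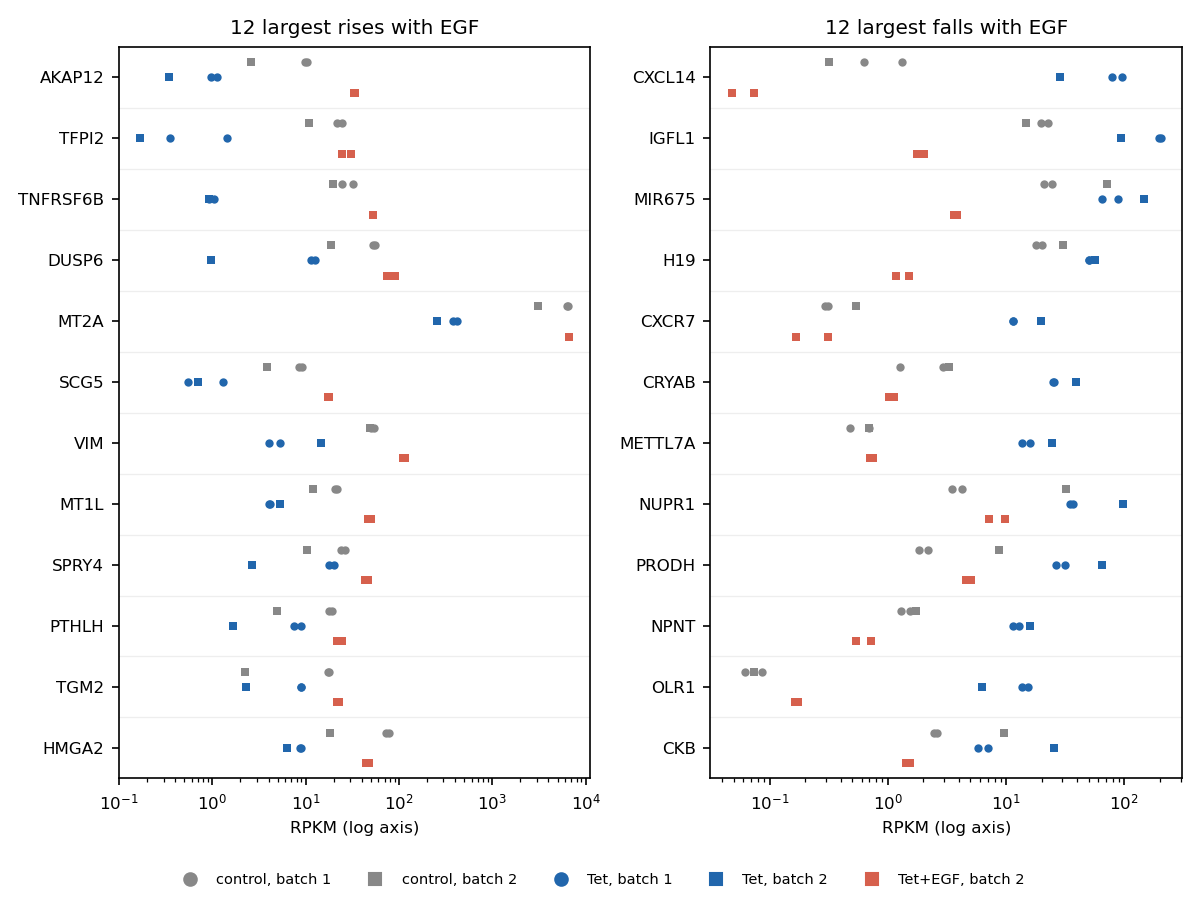
RPKM of each library on a log axis for the 12 genes with the largest rises (left) and falls (right), among called genes averaging at least 5 RPKM whose Tet and Tet+EGF libraries do not overlap. Colour gives the group and shape the batch; no mean is drawn. Tet+EGF points lie to the right of all Tet points on the left panel and to the left of them on the right panel, since that separation was part of the choice.

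Metallothioneins, small cysteine-rich proteins that bind zinc, copper and cadmium, included the most abundant of the strongly raised transcripts. Of the metallothionein genes, 9 of 11 tested (13 listed) were called higher, against 9.82% of all genes. MT2A was at 256, 383 and 414 RPKM with tetracycline alone and 6596 and 6636 with EGF, and at 3113, 6261 and 6463 in control. Every Tet library was below every other library, and the log2 fold change with EGF was 4.82 (SE 0.12, adjusted p = 8.01e-06). MT1E was at 133, 117 and 126 RPKM with tetracycline alone and 657 and 662 with EGF, a log2 fold change of 2.32 (SE 0.08, adjusted p = 2.14e-05), and remained below the control libraries at 967, 883 and 945. MT1X, in the same cluster, was at 549.5, 286 and 327 RPKM with tetracycline alone and 734 and 737 with EGF. The Tet+EGF libraries were above all Tet libraries, but the log2 fold change of 0.69 (SE 0.22, adjusted p = 0.0775) did not pass, and it was 1.22 without Tet replicate 1. MT1L (3.45, 4.2 without Tet replicate 1), MT1B (2.36), MT1A (2.34), MT1H (2.26), MT1DP (2.24), MT1G (2.45, 3.81 without Tet replicate 1) and MT1F (1.41) were also called higher in log2 fold change. These genes are near-identical copies, and how reads were divided among them is unknown here, so their separate values are uncertain. The call on MT1G (without control 2, Tet 2, Tet 3, Tet+EGF 1 and Tet+EGF 2, adjusted p = 0.0529 to 0.143) was lost when 1 library was left out, and also without the batch term.

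The bases upstream of MT2A, which rose most, and MT1X, which did not pass in the main fit, are shown as examples picked by their values. Upstream sequence was at hand for 5 of the 13 listed metallothionein genes, so the pair cannot stand for the family. Each run is the 250 bases before the RefSeq gene start on the plus strand (build GRCh38.p14), chr16:56608334-56608583 for MT2A and chr16:56682220-56682469 for MT1X, 5′ to 3′. Capitals mark matches on either strand to the AP-1 word TGACTCA and to the metal response element core TGCACNC or TGCGCNC.
MT2A: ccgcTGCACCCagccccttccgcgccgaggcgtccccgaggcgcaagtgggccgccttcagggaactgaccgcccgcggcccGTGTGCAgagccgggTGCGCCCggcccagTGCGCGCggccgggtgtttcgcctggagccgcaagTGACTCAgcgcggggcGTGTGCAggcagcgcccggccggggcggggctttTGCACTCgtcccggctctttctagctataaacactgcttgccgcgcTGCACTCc
MT1X: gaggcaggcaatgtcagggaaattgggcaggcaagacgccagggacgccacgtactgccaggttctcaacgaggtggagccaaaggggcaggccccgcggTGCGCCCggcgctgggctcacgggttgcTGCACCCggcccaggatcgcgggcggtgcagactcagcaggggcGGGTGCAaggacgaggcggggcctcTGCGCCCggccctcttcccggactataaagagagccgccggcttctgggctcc
The MT2A stretch held 1 AP-1 word and 7 metal response element cores, with no overlap between the words, and the MT1X stretch held 4 cores and no AP-1 word.
AP-1, a dimer of FOS and JUN family proteins, is a known regulator of genes downstream of ERK, and the metal response element is the known site of MTF1. Among 10 words searched in the same window of 8468 tested genes matched by symbol, the AP-1 word was found in 8.3% of 879 genes called higher, 6.79% of 780 called lower and 3.58% of 6809 not called, and in 5.19% of all 27305 symbols. The ETS word was found in 17.6%, 8.85% and 20.7% of the same sets, and the CArG box, the site of serum response factor, in 3.3%, 1.92% and 1.13%. The metal response core was found in 40% of genes called higher, 37.2% of those called lower, 40.5% of those not called and 40.1% of tested genes. These matches are descriptions of the letters and show no binding, and a link between any word and the changes was not tested.

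Inhibitors and targets of ERK signalling formed the list with the largest share of rises. In it 20 of 24 listed genes were tested, 15 were called higher (75%) and 1 lower (5%), and the median log2 fold change was 1.52 (1.95 within batch 2 and 1.12 without Tet replicate 1). DUSP6, the phosphatase of cytoplasmic ERK, was at 0.971, 11.4 and 12.5 RPKM with tetracycline alone and 89.8 and 74.4 with EGF. Tet replicate 1 was far below the other Tet libraries, and both Tet+EGF libraries were above the control libraries at 18.6, 54.9 and 52.3. Its log2 fold change was 5.28 (SE 0.39, adjusted p = 0.000346), 5.8 against the batch 2 Tet library and 4.23 without it. SPRY4, a Sprouty inhibitor of receptor tyrosine kinase signalling, was at 2.69, 17.6 and 20.2 RPKM with tetracycline alone and 46.6 and 43.1 with EGF, with a log2 fold change of 3.37 (SE 0.34, adjusted p = 0.00111), 3.83 against the batch 2 Tet library and 2.46 without it. ETV4 and ETV5, ETS transcription factors of the PEA3 family, had log2 fold changes of 2.68 and 3.14, the latter 2.36 without Tet replicate 1. ETV4 was at 2.39, 4.99 and 5.47 RPKM with tetracycline alone and 21.3 and 22.9 with EGF, and 29.2, 31.7 and 31.4 in control, so the EGF libraries stayed below control. SPHK1, a sphingosine kinase, was at 2.58, 9.07 and 12.1 RPKM with tetracycline alone and 26.02 and 26.4 with EGF, a log2 fold change of 2.83 (SE 0.25, adjusted p = 0.000627). SPRY4 and SPHK1 did not pass without the batch term.

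For several of these genes the low values of Tet replicate 1 set the size of the change. PHLDA1, an inhibitor of growth factor signalling, was at 3.68, 21.8 and 24.1 RPKM with tetracycline alone and 58.9 and 61.2 with EGF. The log2 fold change of PHLDA1 was 2.9 (SE 0.68, adjusted p = 0.0267), 3.86 against the batch 2 Tet library and 1.0 without it. DUSP5, a nuclear ERK phosphatase, was at 5.71, 48.4 and 46.3 RPKM with tetracycline alone and 49.6 and 40.8 with EGF, so the Tet+EGF libraries overlapped the 2 Tet libraries of batch 1. Its log2 fold change was 2.36 (SE 0.38, adjusted p = 0.00676), 2.87 against the batch 2 Tet library and 1.34 without it. It was -0.07 against Tet replicates 2 and 3 with no batch term. PHLDA1, DUSP5 and SPRY2, another Sprouty protein (1.93, 1.24 without Tet replicate 1), were named after their values were seen. The calls on PHLDA1 (without Tet+EGF 1 and Tet+EGF 2, adjusted p = 0.118 in each) and DUSP5 (without Tet+EGF 1, adjusted p = 0.0501) were lost when 1 library was left out. PHLDA1, DUSP5 and SPRY2 did not pass without the batch term. The control library of batch 2 was likewise below those of batch 1 for DUSP6, SPRY4, SPHK1, DUSP5 and SPRY2, but above them for PHLDA1 (32.8 against 25.3 and 25.3 RPKM) and HBEGF (12.8 against 7.005 and 6.4 RPKM), and the part of batch in these values was not tested further.

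Among receptors and ligands of the family, 19 of 25 listed genes were tested, 3 were called higher (15.8%) and 4 lower (21.1%), and the median log2 fold change was 0.01. ERRFI1, which binds and inhibits the receptor kinase, was at 8.63, 32.7 and 32.4 RPKM with tetracycline alone and 46.9 and 44.2 with EGF, a log2 fold change of 2.1 (SE 0.18, adjusted p = 0.000581). SHC1, an adaptor between the receptor and RAS, was at 165, 162 and 161 RPKM with tetracycline alone and 308 and 315 with EGF, with the 3 Tet libraries within a narrow range and a log2 fold change of 0.85 (SE 0.08, adjusted p = 0.000851). EPGN, the ligand epigen, fell: it was at 9.67, 14.5 and 12.7 RPKM with tetracycline alone and 2.26 and 1.33 with EGF, with a log2 fold change of -2.36 (SE 0.28, adjusted p = 0.00191). EGFR itself was at 36.4, 26.7 and 24.6 RPKM with tetracycline alone and 26.9 and 28.6 with EGF, and ERBB3 at 10.5, 6.83 and 6.98 RPKM with tetracycline alone and 7.84 and 7.82 with EGF. The Tet+EGF libraries lay below Tet replicate 1 and above Tet replicates 2 and 3 in both, with batch-adjusted log2 fold changes of -0.53 (SE 0.14, adjusted p = 0.0352) and -0.54 (SE 0.13, adjusted p = 0.0323). The calls on EGFR (without control 2, control 3, Tet 2, Tet 3, Tet+EGF 1 and Tet+EGF 2, adjusted p = 0.0588 to 0.193) and ERBB3 (without control 2, control 3, Tet 2, Tet 3, Tet+EGF 1 and Tet+EGF 2, adjusted p = 0.0583 to 0.167) were lost when 1 library was left out. ERRFI1, EGFR and ERBB3 did not pass without the batch term.

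Other ligands did not pass, and their values depended on the libraries and batch term used. HBEGF, heparin-binding EGF-like growth factor, was at 1.005, 5.64 and 8.201 RPKM with tetracycline alone and 16.1 and 19.9 with EGF, with a log2 fold change of 2.56 (SE 0.77, adjusted p = 0.0606), 3.61 against the batch 2 Tet library and 0.45 without it. EREG, epiregulin, was at 2.64, 12.8 and 12.8 RPKM with tetracycline alone and 20.5 and 18.6 with EGF, with 1.74 (SE 0.66, adjusted p = 0.12), 2.67 against the batch 2 Tet library and -0.11 without it. TGFA was at 6.57, 14.6 and 13.2 RPKM with tetracycline alone and 18.04 and 16.4 with EGF, with 0.89 (SE 0.32, adjusted p = 0.0997), 1.32 against the batch 2 Tet library and 0.04 without it. NRG1, neuregulin 1, was at 4.92, 15.7 and 16.3 RPKM with tetracycline alone and 5.21 and 5.05 with EGF, with -0.45 (SE 0.36, adjusted p = 0.455), 0.05 against the batch 2 Tet library and -1.44 without it (adjusted p = 0.000137). In HBEGF, EREG and TGFA both Tet+EGF libraries were above all Tet libraries, and Tet replicate 1 was the lowest. With no batch term, HBEGF, EREG and TGFA had log2 fold changes of 1.33, 0.59 and 0.29 against Tet replicates 2 and 3. The comparison with the batch 2 Tet library rests on that single library in these 3 genes. In NRG1 the Tet+EGF libraries lay beside Tet replicate 1 and below the other Tet libraries.

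Early-response transcription factors and their close targets divided. In this list 21 of 27 listed genes were tested, 8 were called higher (38.1%) and 2 lower (9.52%), and the median log2 fold change was 0.01 (0.37 within batch 2 and -0.64 without Tet replicate 1). CTGF, a matricellular protein, was at 1.46, 8.06 and 7.96 RPKM with tetracycline alone and 20.2 and 16.6 with EGF, a log2 fold change of 3.01 (SE 0.22, adjusted p = 0.000346). CYR61, a related protein, was at 128, 373 and 329 RPKM with tetracycline alone and 290.3 and 254 with EGF, with Tet and Tet+EGF overlapping across batches and a batch-adjusted log2 fold change of 1.21 (SE 0.14, adjusted p = 0.00184). FOSL1, an AP-1 subunit, was at 2.74, 19.05 and 24.6 RPKM with tetracycline alone and 24.2 and 22.8 with EGF, with a log2 fold change of 2.45 (SE 0.34, adjusted p = 0.00349), 2.89 against the batch 2 Tet library and 1.57 without it. BHLHE40, a circadian and stress-responsive repressor, had 0.77. The other members called higher were EGR1, MAFF, MYC and IER5. The 2 called lower were FOSL2 and FOS, which are AP-1 subunits like FOSL1, so AP-1 subunit genes went both ways. Against Tet replicates 2 and 3 with no batch term, CTGF, CYR61, FOSL1 and BHLHE40 had 1.15, -0.37, 0.12 and 0.04. CTGF, CYR61, FOSL1 and BHLHE40 did not pass without the batch term.

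**Figure D4:**
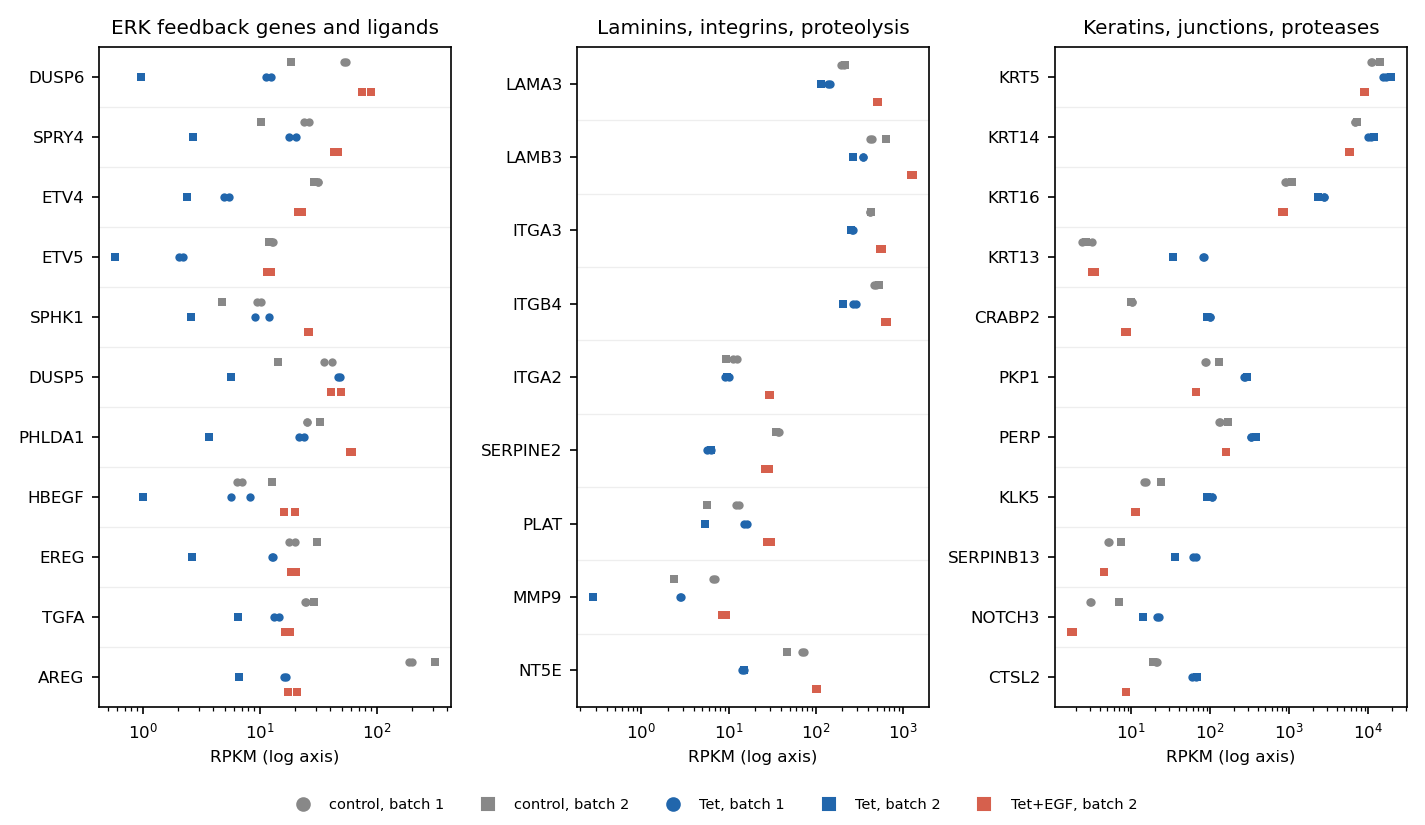
RPKM of each library on a log axis for named genes of 3 groups, with colour for the group and shape for the batch, and no mean drawn. In the left panel, square blue points (Tet, batch 2) lie to the left of the round ones (Tet, batch 1) for DUSP6, PHLDA1 and HBEGF. In the middle, red points (Tet+EGF) lie to the right of all Tet points, and on the right to the left of them.

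Genes for attachment to the basement membrane that rose included LAMA3 and ITGA3. In the integrin and basement membrane list 28 of 33 listed genes were tested, 14 were called higher (50%) and 3 lower (10.7%), and the median log2 fold change was 0.6 (0.55 within batch 2 and 0.55 without Tet replicate 1). LAMA3 encodes the α3 chain of laminin-332, the main adhesive laminin of epidermis, and was at 115, 146 and 139 RPKM with tetracycline alone and 501 and 514 with EGF, with a log2 fold change of 2.0 (SE 0.12, adjusted p = 0.000155), and was also above the control libraries at 218, 196 and 211. The β3 chain gene LAMB3 had 1.94, or 1.3 without Tet replicate 1. ITGA3, the integrin subunit that binds laminin-332, was at 255, 261 and 267 RPKM with tetracycline alone and 551 and 572 with EGF, a log2 fold change of 1.11 (SE 0.07, adjusted p = 0.000169). ITGB4 and ITGA6, which form the hemidesmosome integrin, had 1.45 and 0.71, and ITGA2, a collagen-binding subunit, 1.67. FN1, fibronectin, had 1.95. LAMB3, ITGB4 and ITGA2 were named after their values were seen. The genes called lower were LAMB2 and LAMA5, chains of other laminins, and COL4A6.

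Proteases of the extracellular matrix and their inhibitors were also among the genes called. In this list 20 of 26 listed genes were tested, 12 were called higher (60%) and 2 lower (10%), and the median log2 fold change was 1.46 (1.34 within batch 2 and 1.82 without Tet replicate 1), and 3 members passed the filter through the Tet+EGF libraries alone. SERPINE2, an inhibitor of thrombin and plasminogen activators, was at 6.29, 6.23 and 5.598 RPKM with tetracycline alone and 26.4 and 28.7 with EGF, with a log2 fold change of 2.11 (SE 0.11, adjusted p = 8.46e-05). PLAT, tissue plasminogen activator, was at 5.35, 15.01 and 16.1 RPKM with tetracycline alone and 30.99 and 27.5 with EGF, with 2.23 (SE 0.13, adjusted p = 0.000154), and MMP9, a gelatinase, at 0.278, 2.85 and 2.75 RPKM with tetracycline alone and 9.27 and 8.43 with EGF, with 3.34 (SE 0.21, adjusted p = 0.000163). In all of these the Tet+EGF libraries exceeded each Tet library. TIMP1, an inhibitor of metalloproteinases, had a log2 fold change of 1.5. MMP1, a collagenase, was listed at 0 in all 3 Tet libraries and at 1.68 and 1.72 RPKM with EGF. TIMP3 fell, with -1.62, at 9.75, 11.2 and 12.3 RPKM with tetracycline alone and 2.98 and 3.07 with EGF. TIMP1, TIMP3 and MMP1 were named after their values were seen. MMP1 was 1 of the 3 members that passed the filter through the Tet+EGF libraries alone, and PLAT and MMP9 did not pass without the batch term.

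In the migration and cytoskeleton list 61 of 70 listed genes were tested, 28 were called higher (45.9%) and 9 lower (14.8%), and the median log2 fold change was 0.48 (0.44 within batch 2 and 0.44 without Tet replicate 1). NT5E, the surface enzyme CD73 that makes adenosine, was at 15.1, 15.1 and 14.4 RPKM with tetracycline alone and 101 and 102 with EGF, with a log2 fold change of 2.92 (SE 0.17, adjusted p = 0.000121), 2.71 against the batch 2 Tet library and 3.33 without it. All 3 Tet libraries were nearly equal, and the Tet+EGF libraries were above the control libraries at 47.2, 69.3 and 73.1. HMGA1, an architectural chromatin protein, had 1.14. CD44, the hyaluronan receptor, had 0.91 and AXL, a receptor tyrosine kinase, 1.39. Both were named after their values were seen. Eph, ephrin and semaphorin genes went both ways. The 9 members called lower included EPHB6, EPHB3, EPHA4, EFNA5, EFNA3 and SEMA3F. The 28 called higher included EPHA2, SEMA3A, SEMA3C and the semaphorin receptor gene NRP1.

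Keratins form the intermediate filaments of epithelial cells, and those that fell included the main keratins of the basal layer. In this list 24 of 26 listed genes were tested, 1 was called higher (4.17%) and 11 lower (45.8%), and the median log2 fold change was -0.99 (-0.94 within batch 2 and -1.34 without Tet replicate 1). KRT5 was at 19392, 15309 and 16594 RPKM with tetracycline alone and 9182 and 8923 with EGF, and 14170.5, 10757 and 11072 in control. It fell from 3.53% to 4.27% of the summed RPKM in Tet to 2.03% to 2.08% with EGF, a log2 fold change of -1.13 (SE 0.08, adjusted p = 0.000263). Quantile scaling leaves it no change by construction, since KRT5 was the highest gene in each library. KRT14, its partner, was at 11739.8, 10036 and 10825 RPKM with tetracycline alone and 5881 and 5772 with EGF, with -0.98 (SE 0.07, adjusted p = 0.000373). KRT16, a keratin of activated epidermis, was at 2331, 2739.6 and 2732 RPKM with tetracycline alone and 860.3 and 821 with EGF, with -1.64 (SE 0.14, adjusted p = 0.00051), and the Tet+EGF libraries were just below the control libraries at 1079, 906 and 877. KRT17 and KRT6A, of the same kind, had -1.92 and -0.9 (named after their values were seen), and KRT13, a keratin of wet-surfaced epithelia, -3.56 (-4.38 without Tet replicate 1). KRT14, KRT16 and KRT17, and the KRT6 genes, are close in sequence and may share reads. KRT18, a keratin of simple epithelia, was the 1 member called higher.

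Cell junction genes went both ways. In this list 36 of 39 listed genes were tested, 7 were called higher (19.4%) and 14 lower (38.9%), and the median log2 fold change was -0.22 (-0.17 within batch 2 and -0.64 without Tet replicate 1). Desmosome genes were among those that fell. PKP1, plakophilin 1, was at 296, 266 and 272 RPKM with tetracycline alone and 66.6 and 67.001 with EGF, with a log2 fold change of -2.28 (SE 0.12, adjusted p = 0.000108), and the Tet+EGF libraries were also below the control libraries at 129, 85.2 and 87.9. PERP, a desmosomal membrane protein, was at 377, 331 and 331 RPKM with tetracycline alone and 161 and 158 with EGF, with -1.29 (SE 0.08, adjusted p = 0.000155). DSC1 had -2.18 and DSG1 -1.93 (-2.65 without Tet replicate 1), both desmosomal cadherins, DSG1 named after its values were seen. GJB2, a gap junction connexin, rose: it was at 24.2, 69.02 and 73.2 RPKM with tetracycline alone and 125 and 113 with EGF, with 2.48 (SE 0.17, adjusted p = 0.000269), 2.27 against the batch 2 Tet library and 2.89 without it. GJB2 had 0.73 against Tet replicates 2 and 3 with no batch term. The other connexins called included GJB5 and GJB6, higher, and GJA1, lower. GJB2 did not pass without the batch term, and DSC1 and DSG1 passed the filter through the Tet libraries alone.

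Markers of late differentiation that fell included KRTDAP and TGM1. In the cornified envelope list 26 of 55 listed genes were tested, 2 were called higher (7.69%) and 7 lower (26.9%), and the median log2 fold change was -0.29 (0.04 within batch 2 and -1.11 without Tet replicate 1), so the median turned sign by batch, and 29 listed genes did not pass the filter. The 2 called higher were CST6 and LCE3D. Without Tet replicate 1, 4 members were called higher and 16 lower, in a fit that called 2246 and 2633 of all 12487 genes. KRTDAP, a secreted differentiation protein, was at 12.2, 38.5 and 29.7 RPKM with tetracycline alone and 1.21 and 2.203 with EGF, with -2.8 (SE 0.29, adjusted p = 0.00125). TGM1, the transglutaminase that cross-links the envelope, was at 6.59, 17.8 and 17.7 RPKM with tetracycline alone and 1.31 and 1.05 with EGF, with -2.45 (SE 0.29, adjusted p = 0.00189), -2.08 against the batch 2 Tet library and -3.17 without it. PPL and EVPL, plakins of the envelope, had -1.47 and -0.92. CRABP2, which carries retinoic acid, was in none of the lists and was named after its values were seen, at 90.3, 100.01 and 98.002 RPKM with tetracycline alone and 8.76 and 8.39 with EGF, with -3.35 (SE 0.08, adjusted p = 8.01e-06).

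Kallikreins cleave desmosomes as corneocytes shed, and none of them was called higher. Of the kallikrein and inhibitor list 12 of 21 listed genes were tested, 0 were called higher (0%) and 8 lower (66.7%), and the median log2 fold change was -1.14 (-0.95 within batch 2 and -1.86 without Tet replicate 1). KLK5 was at 90.6, 106 and 107 RPKM with tetracycline alone and 11.1 and 11.5 with EGF, with -3.25 (SE 0.22, adjusted p = 0.00027), and KLK8 and KLK7 had -1.98 and -1.4. SPINK5, an inhibitor of these proteases, had -2.17. Of the serpin list 10 of 13 listed genes were tested, 2 were called higher (20%) and 5 lower (50%), and the median log2 fold change was -0.67. SERPINB13, an inhibitor of cathepsins, was at 35.9, 65.5 and 60.3 RPKM with tetracycline alone and 4.51 and 4.55 with EGF, with -3.29 (SE 0.32, adjusted p = 0.000938), -2.86 against the batch 2 Tet library and -4.16 without it. SERPINB7, SERPINB3 and SERPINB10 had -1.06, -1.88 and -1.72. SERPINB3 and its near copy SERPINB4 may share reads. SERPINB10 was 1 of 2 serpins that passed the filter through the Tet libraries alone.

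Transcription factors of epidermal differentiation and Notch pathway genes included NRARP and NOTCH3 among those that fell. In this list 36 of 41 listed genes were tested, 2 were called higher (5.56%) and 17 lower (47.2%), and the median log2 fold change was -0.62 (-0.45 within batch 2 and -0.82 without Tet replicate 1). NRARP, a Notch target and inhibitor, and HES2, a hairy-related repressor, had log2 fold changes of -1.98 and -1.71. NOTCH3 was at 14.2, 21.2 and 22.7 RPKM with tetracycline alone and 1.86 and 1.72 with EGF, with -3.25 (SE 0.41, adjusted p = 0.00245), -2.68 against the batch 2 Tet library and -4.38 without it, and was named after its values were seen. SOX9, a factor of hair follicle progenitors, was called higher at 1.35 (SE 0.17, adjusted p = 0.00212). Its values were 5.85, 25.6 and 28.8 RPKM in Tet and 16.5 and 12.7 with EGF, so the batch 1 Tet libraries lay above both libraries with EGF, and the call rests on the batch term.

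The calls on cell division genes depended on which libraries entered the fit. Of the mitosis list 86 of 86 listed genes were tested, 1 was called higher (1.16%) and 3 lower (3.49%), and the median log2 fold change was -0.02 (-0.2 within batch 2 and 0.33 without Tet replicate 1), beside 9.82% and 9.15% of all genes. Both Tet+EGF libraries lay below all 3 Tet libraries for 49 of the 86, against 20.3% of all genes, and above them for 6. With Tet and Tet+EGF libraries alone, 16 mitosis genes were called lower, where 1786 of all 12317 genes were. Without control replicate 1 the number was 18, beside 1764 of all 12514. Without Tet replicate 1, 27 were called higher and 3 lower, beside 2246 and 2633 of all 12487. CDC25B, a phosphatase that activates mitotic kinase, had -0.72, DEPDC1B -0.59, BIRC5, survivin, -0.45 and CENPO, a kinetochore protein, 0.43. The calls on CDC25B (without Tet+EGF 1, adjusted p = 0.0637), DEPDC1B (without Tet+EGF 1 and Tet+EGF 2, adjusted p = 0.0565 to 0.14), BIRC5 (without control 2, control 3, Tet 1, Tet 2, Tet 3, Tet+EGF 1 and Tet+EGF 2, adjusted p = 0.0509 to 0.207) and CENPO (without control 2, control 3, Tet 3, Tet+EGF 1 and Tet+EGF 2, adjusted p = 0.0511 to 0.173) were lost when 1 library was left out. Of the replication list 76 of 79 listed genes were tested, 4 were called higher (5.26%) and 0 lower (0%), and the median log2 fold change was 0.24 (-0.09 within batch 2 and 0.86 without Tet replicate 1), so its median also turned with the batch. Both Tet+EGF libraries lay below all 3 Tet libraries for 26 of the 76, against 20.3% of all genes. They lay above them for 10, against 32.2% of all genes. Without Tet replicate 1, 59 replication genes were called higher and 0 lower, beside the same 2246 and 2633 of all 12487. With Tet and Tet+EGF libraries alone 7 were called higher and 7 lower, beside 2419 and 1786 of all 12317. E2F7, a repressor of G1/S genes, was at 1.297, 1.32 and 1.1 RPKM with tetracycline alone and 3.86 and 4.32 with EGF, against 6.36, 5.58 and 6.31 in control, with 1.35 (SE 0.13, adjusted p = 0.00107). CCND2, cyclin D2, was at 15.3, 24.1 and 25.3 RPKM with tetracycline alone and 26.6 and 25.8 with EGF, against 65.3, 86.8 and 94.4 in control, with 0.69 (SE 0.10, adjusted p = 0.00384). CCND1, cyclin D1, had 0.75, with the Tet+EGF libraries at 54.8 and 48.5 RPKM between Tet replicate 1 at 29.9 and the other Tet libraries. RFC1, a clamp loader subunit, had 0.38. The call on RFC1 (without control 2, control 3, Tet 2, Tet 3, Tet+EGF 1 and Tet+EGF 2, adjusted p = 0.0614 to 0.252) was lost when 1 library was left out. Of the division genes named here E2F7 alone passed without the batch term. CCND2 and CCND1 had 0.31 and -0.16 in that fit.

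Genes of cell-cycle arrest and of growth factor withdrawal included 10 and 19 members called lower. In the list of CDK inhibitors and p53 targets 34 of 37 listed genes were tested, 1 was called higher (2.94%) and 10 lower (29.4%), and the median log2 fold change was -0.15 (-0.15 within batch 2 and -0.42 without Tet replicate 1). FDXR, a mitochondrial reductase and p53 target, was at 44.02, 44.8 and 44.6 RPKM with tetracycline alone and 22.3 and 22.7 with EGF, with -1.07 (SE 0.11, adjusted p = 0.00129), and SESN3, a sestrin, at 10.6, 11.8 and 10.6 RPKM with tetracycline alone and 4.68 and 3.92 with EGF, with -1.31 (SE 0.19, adjusted p = 0.00449). BTG1, an antiproliferative protein, had -0.69 and TP53INP1, a stress-response protein, -0.91. In the FOXO and growth factor withdrawal list 41 of 46 listed genes were tested, 3 were called higher (7.32%) and 19 lower (46.3%), and the median log2 fold change was -0.45 (-0.45 within batch 2 and -0.71 without Tet replicate 1). IGFL1 and H19 led it, and IGFBP2, which binds insulin-like growth factors, was at 265, 374 and 385 RPKM with tetracycline alone and 154 and 165 with EGF, with -0.81 (SE 0.10, adjusted p = 0.00213). TSC22D3, a glucocorticoid-induced leucine zipper protein, was at 149.6, 20.4 and 20.96 RPKM with tetracycline alone and 55.5 and 68.4 with EGF, with -1.29 (SE 0.12, adjusted p = 0.000672). Its batch 1 Tet libraries lay below both libraries with EGF, its change was 0.61 in log2 without the batch term, and the call rests on that term. In the histone list 37 of 66 listed genes were tested, 0 were called higher (0%) and 5 lower (13.5%), and the median log2 fold change was -0.17, and the 4 with the smallest p, HIST1H2AG, HIST2H3C, HIST1H2AI and HIST2H3A, had -0.81, -0.83, -0.54 and -0.97. Histone copies share reads, and their transcripts are largely without a poly(A) tail. The calls on TP53INP1 (without Tet+EGF 1 and Tet+EGF 2, adjusted p = 0.0596 to 0.0672), HIST1H2AG (without Tet 1, Tet+EGF 1 and Tet+EGF 2, adjusted p = 0.0743 to 0.152), HIST2H3C (without control 3, Tet 2, Tet 3, Tet+EGF 1 and Tet+EGF 2, adjusted p = 0.051 to 0.211), HIST1H2AI (without control 2, control 3, Tet 2, Tet 3, Tet+EGF 1 and Tet+EGF 2, adjusted p = 0.0532 to 0.247) and HIST2H3A (without control 3, Tet 2, Tet 3, Tet+EGF 1 and Tet+EGF 2, adjusted p = 0.0546 to 0.217) were lost when 1 library was left out. BTG1, TP53INP1, HIST2H3C, HIST1H2AI, HIST2H3A and TSC22D3 did not pass without the batch term, and BTG1 had -0.13 in that fit.

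**Figure D5:**
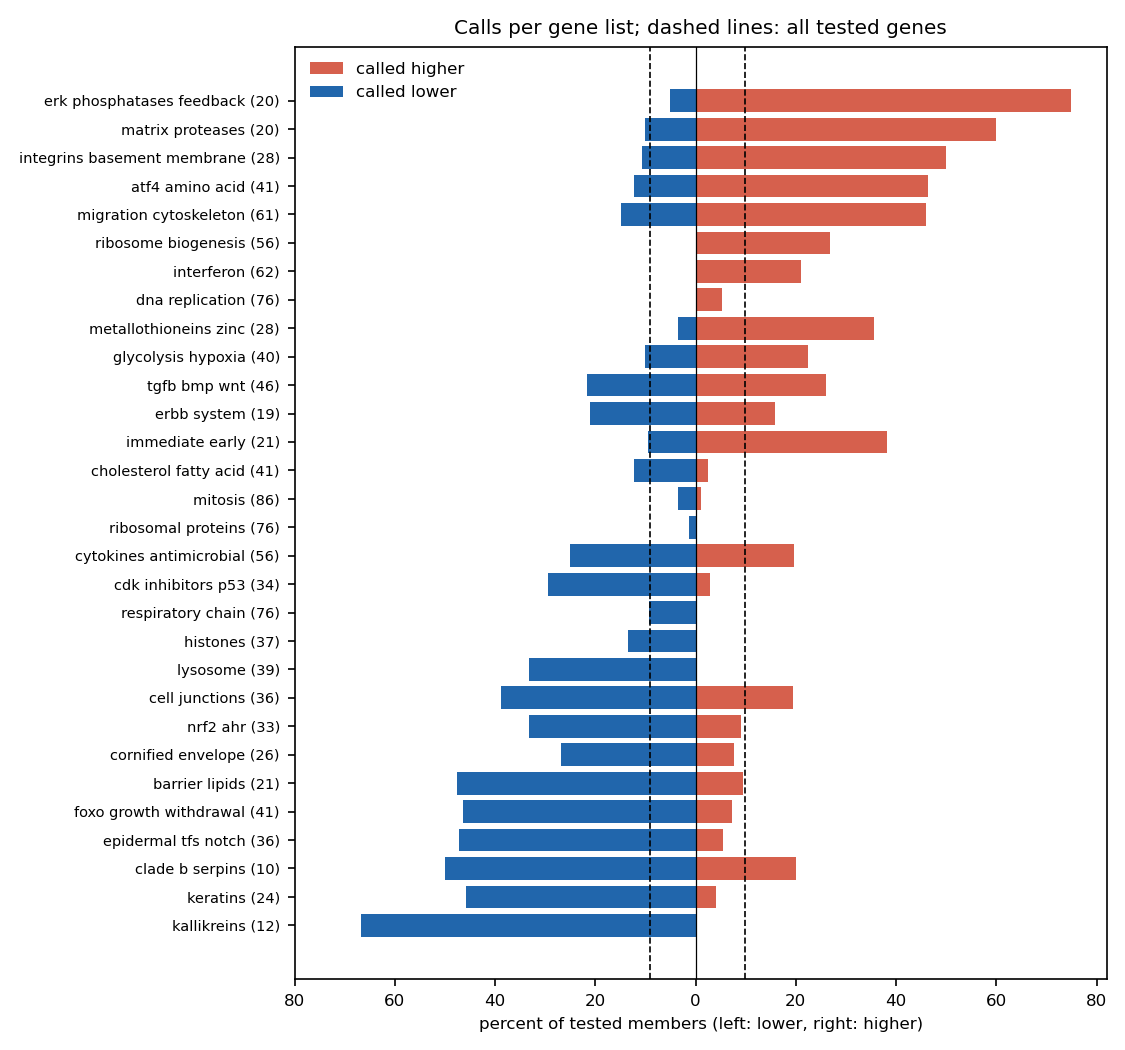
Percent of the tested members of each gene list called higher (right) and lower (left) with EGF, with the number of tested members in parentheses, ordered by median log2 fold change. Dashed lines mark 9.82% higher and 9.15% lower over all genes; the list of ERK phosphatases and feedback genes reaches 75% higher and kallikreins 66.7% lower, and only lists with at least 10 tested members are drawn.

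Genes of amino acid supply were next, and ASNS and PYCR1 were among those that rose. In the list of ATF4 targets and amino acid genes 41 of 44 listed genes were tested, 19 were called higher (46.3%) and 5 lower (12.2%), and the median log2 fold change was 0.56 (0.79 within batch 2 and 0.23 without Tet replicate 1). ASNS, asparagine synthetase, was at 7.297, 4.46 and 4.89 RPKM with tetracycline alone and 21.8 and 30.2 with EGF, with 1.79 (SE 0.16, adjusted p = 0.000715), while the control libraries were at 82.8, 58.3 and 62.2. PYCR1, which makes proline, was at 6.79, 5.32 and 5.698 RPKM with tetracycline alone and 14.9 and 16.3 with EGF, with 1.11 (SE 0.10, adjusted p = 0.000627), against 43.5, 33.8 and 32.6 in control. In both genes the Tet+EGF libraries lay between Tet and control without overlap. CBS, of homocysteine use, had 1.35, CHAC1, which degrades glutathione, 2.2, PSAT1, of serine synthesis, 1.03 and SHMT2, of mitochondrial one-carbon use, 0.75. PRODH, which breaks proline down, fell by 3.86 on the log2 scale, at 64.9, 26.7 and 31.7 RPKM with tetracycline alone and 4.58 and 5.06 with EGF. The members called lower were NUPR1, ASS1 and the transporter genes SLC7A5, SLC7A1 and SLC3A2. CHAC1, PSAT1 and SHMT2 were named after their values were seen. NUPR1 and SLC7A5 did not pass without the batch term.

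Lipid and glucose genes gave mixed results. In the cholesterol and fatty acid list 41 of 44 listed genes were tested, 1 was called higher (2.44%) and 5 lower (12.2%), and the median log2 fold change was -0.01 (-0.25 within batch 2 and 0.49 without Tet replicate 1). SCD5, a stearoyl-CoA desaturase, was at 39.5, 43.6 and 40.5 RPKM with tetracycline alone and 10.8 and 10.4 with EGF, with -1.76 (SE 0.14, adjusted p = 0.000393). SREBF1, a regulator of lipid synthesis, had -0.68, and TM7SF2, a sterol reductase, -1.07. In the epidermal barrier lipid list 21 of 33 listed genes were tested, 2 were called higher (9.52%) and 10 lower (47.6%), and the median log2 fold change was -0.35 (-0.31 within batch 2 and -0.39 without Tet replicate 1). SPTLC3, of ceramide synthesis, was at 7.15, 6.13 and 5.85 RPKM with tetracycline alone and 2.98 and 2.78 with EGF, with -1.17 (SE 0.11, adjusted p = 0.000744). ASAH1, acid ceramidase, ELOVL7, a fatty acid elongase, and UGCG, glucosylceramide synthase, had -0.6, -0.81 and 0.69. In the glycolysis and hypoxia list 40 of 43 listed genes were tested, 9 were called higher (22.5%) and 4 lower (10%), and the median log2 fold change was 0.17 (0.0 within batch 2 and 0.52 without Tet replicate 1). SLC16A3, a lactate exporter, was at 20.04, 15.7 and 18.1 RPKM with tetracycline alone and 90.9 and 94.9 with EGF, with 2.13 (SE 0.12, adjusted p = 0.000116), above the control libraries at 36.8, 29.98 and 25.9. SLC2A3, a glucose transporter, had 1.08, while ADM, the peptide adrenomedullin, and P4HA2, a prolyl hydroxylase of collagen, had -1.92 and -0.75. The calls on TM7SF2 (without Tet+EGF 2, adjusted p = 0.0537), ASAH1 (without Tet+EGF 2, adjusted p = 0.0557), ELOVL7 (without Tet+EGF 1, adjusted p = 0.0545) and UGCG (without Tet+EGF 1, adjusted p = 0.0676) were lost when 1 library was left out. SREBF1, TM7SF2, ASAH1, ELOVL7, UGCG, P4HA2 and ADM did not pass without the batch term.

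Detoxification genes that fell included CYP1A1 and members of the aldo-keto reductase family. In the list of NRF2 and aryl hydrocarbon receptor targets 33 of 36 listed genes were tested, 3 were called higher (9.09%) and 11 lower (33.3%), and the median log2 fold change was -0.26 (-0.29 within batch 2 and -0.36 without Tet replicate 1). AKR1C3, a steroid reductase, was at 45.3, 42.6 and 39.9 RPKM with tetracycline alone and 17.1 and 14.7 with EGF, with -1.56 (SE 0.12, adjusted p = 0.000366), and AKR1B10, an aldose reductase, at 4.296, 3.5 and 3.34 RPKM with tetracycline alone and 0.147 and 0.157 with EGF, with -2.83 (SE 0.15, adjusted p = 0.000108). AKR1B10 was 1 of 3 members that passed the filter through the Tet libraries alone and so could differ downward alone. UGT1A6, a glucuronosyltransferase, had -2.8, but UGT1A transcripts share exons and AKR1C genes share sequence, so these are uncertain. CYP1A1, the cytochrome induced by the aryl hydrocarbon receptor, was named after its values were seen, at 78.4, 120.3 and 110.04 RPKM with tetracycline alone and 13.04 and 16.1 with EGF. It had -3.14 (SE 0.54, adjusted p = 0.00845), -2.39 against the batch 2 Tet library and -4.62 without it, and the control libraries were at 6.97, 1.85 and 1.82. TIPARP, another target of that receptor, went the other way, at 10.4, 17.3 and 14.5 RPKM with tetracycline alone and 29.7 and 28.1 with EGF, with 1.57 (SE 0.15, adjusted p = 0.000816). The call on CYP1A1 (without Tet+EGF 1, adjusted p = 0.0582) was lost when 1 library was left out. TIPARP did not pass without the batch term.

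Of the ribosome biogenesis genes, those called were all higher and by small amounts. In this list 56 of 57 listed genes were tested, 15 were called higher (26.8%) and 0 lower (0%), and the median log2 fold change was 0.36 (0.48 within batch 2 and 0.02 without Tet replicate 1), and the 4 with the smallest p, NAT10, WDR12, NCL and HEATR1, had 0.55, 0.56, 0.43 and 0.6. The calls on NAT10 (without Tet+EGF 1 and Tet+EGF 2, adjusted p = 0.0596 to 0.0679), WDR12 (without Tet+EGF 1, adjusted p = 0.0849), NCL (without Tet+EGF 1 and Tet+EGF 2, adjusted p = 0.0672 to 0.0929) and HEATR1 (without Tet+EGF 1 and Tet+EGF 2, adjusted p = 0.0815 to 0.0854) were lost when 1 library was left out. NAT10, WDR12, NCL and HEATR1 did not pass without the batch term. Of the ribosomal protein genes 76 of 76 listed genes were tested, 0 were called higher (0%) and 1 lower (1.32%), and the median log2 fold change was -0.08. RPS19, the member called, had -0.31. For the respiratory chain 76 of 76 listed genes were tested, 0 were called higher (0%) and 7 lower (9.21%). The share lower was near the 9.15% of all genes, and the median log2 fold change was -0.15. NDUFB10, COX5B, UQCR11 and ATP5L had -0.51, -0.57, -0.37 and -0.41. The calls on RPS19 (without control 2, control 3, Tet 2, Tet 3, Tet+EGF 1 and Tet+EGF 2, adjusted p = 0.0561 to 0.252), NDUFB10 (without Tet+EGF 1 and Tet+EGF 2, adjusted p = 0.0532 to 0.0558), COX5B (without Tet+EGF 1 and Tet+EGF 2, adjusted p = 0.0838 to 0.124), UQCR11 (without Tet+EGF 1 and Tet+EGF 2, adjusted p = 0.131 to 0.135) and ATP5L (without control 3, Tet 2, Tet+EGF 1 and Tet+EGF 2, adjusted p = 0.0547 to 0.178) were lost when 1 library was left out. RPS19, NDUFB10, COX5B, UQCR11 and ATP5L did not pass without the batch term either.

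The lysosomal genes called were all lower. Of the list 39 of 43 listed genes were tested, 0 were called higher (0%) and 13 lower (33.3%), and the median log2 fold change was -0.18 (-0.23 within batch 2 and -0.17 without Tet replicate 1). CTSL2, cathepsin V, was at 67.9, 65.9 and 59.6 RPKM with tetracycline alone and 8.57 and 8.62 with EGF, with -2.82 (SE 0.11, adjusted p = 3.14e-05), and fell below the control libraries at 18.6, 21.4 and 20.3. GPNMB, a lysosomal membrane glycoprotein, was at 19.7, 17.1 and 18.3 RPKM with tetracycline alone and 1.33 and 1.99 with EGF, with -3.3 (SE 0.17, adjusted p = 9.43e-05), but stayed above the control libraries at 0.403, 0.218 and 0.229. CTSD, cathepsin D, had -1.07 and CLN3 -0.91.

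The interferon-stimulated genes called were all higher. In this list 62 of 63 listed genes were tested, 13 were called higher (21%) and 0 lower (0%), and the median log2 fold change was 0.3 (0.23 within batch 2 and 0.42 without Tet replicate 1). DDX58, the RNA sensor RIG-I, was at 13.02, 13.97 and 14.3 RPKM with tetracycline alone and 25.7 and 25.4 with EGF, with 0.94 (SE 0.08, adjusted p = 0.000627), above the control libraries at 8.28, 8.89 and 8.98. PLSCR1 and SP100, a phospholipid scramblase and a nuclear body protein, had 0.56 and 0.53. The calls on PLSCR1 (without Tet+EGF 2, adjusted p = 0.0536) and SP100 (without Tet+EGF 1 and Tet+EGF 2, adjusted p = 0.0834 to 0.113) were lost when 1 library was left out. Cytokines and antimicrobial genes divided, and 56 of 82 listed genes were tested, 11 were called higher (19.6%) and 14 lower (25%), and the median log2 fold change was -0.12 (-0.03 within batch 2 and -0.45 without Tet replicate 1). IL1RN, the interleukin-1 receptor antagonist, was at 21.2, 32.7 and 31.9 RPKM with tetracycline alone and 5.74 and 5.29 with EGF, with -1.86 (SE 0.11, adjusted p = 0.000155), and IL1A, the agonist, at 10.01, 45.9 and 43.2 RPKM with tetracycline alone and 103 and 90.97 with EGF, with 2.75 (SE 0.34, adjusted p = 0.0023), 3.21 against the batch 2 Tet library and 1.81 without it. CXCL11, an interferon-induced chemokine, was at 0.685, 0.332 and 0.466 RPKM with tetracycline alone and 8.42 and 6.801 with EGF, with 2.82 (SE 0.18, adjusted p = 0.000211). It was 1 of 4 members of the cytokine list that passed the filter through the Tet+EGF libraries alone and so could differ upward alone, and 2 members passed through Tet alone. RNASE7, an antimicrobial ribonuclease, had 2.33, at 6.35, 8.45 and 9.03 RPKM with tetracycline alone and 38.3 and 39.6 with EGF. IL1A and RNASE7 were named after their values were seen, and IL1A did not pass without the batch term.

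In the TGF-β, BMP and Wnt list 46 of 65 listed genes were tested, 12 were called higher (26.1%) and 10 lower (21.7%), and the median log2 fold change was 0.06 (0.02 within batch 2 and 0.14 without Tet replicate 1). WNT4 was at 6.67, 3.68 and 4.17 RPKM with tetracycline alone and 1.29 and 1.24 with EGF, with -2.06 (SE 0.14, adjusted p = 0.000263), and THBS1, thrombospondin 1, which activates latent TGF-β, at 147, 932 and 990.1 RPKM with tetracycline alone and 1077 and 956 with EGF, with 2.53 (SE 0.20, adjusted p = 0.000399). THBS1 in the Tet+EGF libraries overlapped the batch 1 Tet libraries. INHBA, the activin A subunit, had 2.95 (2.19 without Tet replicate 1), and TGFB1 0.89. With no batch term, INHBA had 0.38 and TGFB1 0.74 against Tet replicates 2 and 3. Other Wnt ligands, named after their values were seen, differed in direction: WNT10A was at 39.5, 53.02 and 49.2 RPKM with tetracycline alone and 6.69 and 6.21 with EGF and WNT7A at 25.7, 23.4 and 22.96 RPKM with tetracycline alone and 66.9 and 64.9 with EGF. WNT10A had -3.16 (-4.44 without Tet replicate 1) and WNT7A 1.65 (2.28 without it). THBS1 and INHBA did not pass without the batch term.

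Most markers of other cell types were below 1 RPKM, with MFAP5, CD68 and LCP1 among the exceptions. Of 12 fibroblast markers 7 were below 1 RPKM in each Tet library and 9 in each Tet+EGF library, with summed levels of 134 to 138 and 42.6 to 45.9 RPKM. DCN, COL1A1, FBLN1 and MFAP5 had -4.0, -1.48, -1.07 and -1.36, and POSTN and TCF21 were listed at 0 in both Tet+EGF libraries. MFAP5, which makes up most of the fibroblast sum, was at 105, 109 and 106 RPKM in Tet and 32.9 and 30.3 in Tet+EGF, and at 14.5, 30.6 and 32.4 in control. DCN and CSF1R passed the filter through the Tet libraries alone. Of 11 leukocyte markers 8 were below 1 RPKM in each Tet library and 9 in each Tet+EGF library, with sums of 33.3 to 47.8 and 109 to 109.998 RPKM; PTPRC, CD207 and TYROBP were listed at 0 in both Tet+EGF libraries. CD68 and LCP1, which carry most of that sum, had 1.65 and 1.63, and CSF1R -2.39. CD68 was at 16.2, 11 and 11.3 RPKM in Tet and 49.95 and 52.5 in Tet+EGF, and LCP1 at 24.95, 19 and 17.1 in Tet and 58.1 and 56.2 in Tet+EGF. Of 8 endothelial markers 6 were below 1 RPKM in each of these 5 libraries (sums 5.87 to 10.6 in Tet and 8.15 to 8.38 in Tet+EGF, PECAM1 and CLDN5 at 0 with EGF), and ENG had 0.52. None of the 9 melanocyte and Merkel cell markers in the table passed the filter (sums 1.27 to 2.29 and 0.960 to 1.25 RPKM; TYR, SOX10 and ATOH1 at 0 with EGF). In bulk RNA, fewer cells of a type and less RNA per cell cannot be told apart. The calls on FBLN1 (without Tet+EGF 1, adjusted p = 0.0695), MFAP5 (without Tet+EGF 1 and Tet+EGF 2, adjusted p = 0.0665 to 0.0815), LCP1 (without Tet+EGF 1 and Tet+EGF 2, adjusted p = 0.0778 to 0.0875) and ENG (without Tet+EGF 1 and Tet+EGF 2, adjusted p = 0.0902 to 0.118) were lost when 1 library was left out.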

How the data were processed

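RNA was measured in 8 libraries of N/TERT-2G cells. Per the labels' protocols, polyadenylated RNA was made into libraries with the Illumina mRNA-Seq kit and sequenced on a Genome Analyzer IIx, 1 sample per lane, at about 2.4 gigabases a sample. TopHat 1.3.3 is named in the submitters' processing notes. The authors deposited 1 table of RPKM values per gene and library, with the counting tool, build and annotation not given in the sources used here. Depth per library was not used here, and the number of libraries limits the precision. Bare numbers stand in place of a symbol for 26 genes, which were not named.

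The filter kept genes that reached 1 RPKM in 2 or more libraries. A linear model of group plus batch was fitted to log2(RPKM + 0.5) of all 8 libraries using limma 3.58.1 (trended eBayes, R 4.3.3). Fold changes are on that scale, which understates those of low genes. P-values are two-sided, Benjamini-Hochberg adjusted over 12567 genes, with a threshold of 0.05. The fit was tested on data simulated from the same model of group plus batch. It recovered 79.4% of 97 planted 2-fold changes and 25% of 100 planted 1.5-fold changes, and 2.86% of its calls were false. Since the simulation used that model, it cannot show how calls depend on the batch term. Members and the 35 gene lists were chosen with earlier results of these data known. Named genes are the 12 largest rises and falls among called genes averaging at least 5 RPKM with no overlap between groups, up to 4 called members of each list with the smallest p, AREG, FOXM1, EGFR and ERBB ligands; others are marked in the text, and some genes of this rule are not reported here. Alternatives were pseudocounts of 0.1 and 1, no filter, a floor on mean RPKM of 5, no batch term, only Tet and Tet+EGF, batch 2 alone, a replicate block, quantile and median-ratio scaling, no trend, and each library left out. Upstream sequences came from RefSeq (GRCh38.p14), matched by symbol. Python 3.11.15, pandas 2.3.3, numpy 2.4.6 and matplotlib 3.10.9 were used.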

Additional observations from a re-analysis of the deposited data

How the results depend on the processing

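Pseudocounts of 0.1 and 1, no filter, a mean RPKM of at least 5, quantile and median-ratio scaling and no trend each kept the numbers of genes called higher and lower within 1.5 times of 1234 and 1150. Genes called higher and lower numbered 635 and 528 without the batch term, 2419 and 1786 with only the Tet and Tet+EGF libraries, and 3422 and 2273 with the 3 batch 2 libraries, where Tet is 1 library assumed to vary like the others. Leaving out 1 library gave 381 to 2469 genes higher and 427 to 2633 lower. The fewest higher came without Tet+EGF replicate 2 (381 and 438) or 1 (385 and 427), and many came without Tet replicate 1 (2246 and 2633) or control replicate 1 (2469 and 1764). The cause was not tested.

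When a replicate block took the place of batch, 427 genes were called higher and 422 lower. Same-numbered libraries had r of -0.31, -0.263, -0.137 and -0.155 between Tet+EGF and the other groups. Between Tet and control they had 0.476, 0.314 and 0.338, where the other pairs within a batch had 0.334 and 0.272. These r compare deviations from group means across genes, with batch left in. The deviations of the 2 Tet+EGF libraries mirror each other, so their r cannot decide the pairing. Not every pair exceeded 0.1, and the numbers were not taken to pair the samples.

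Without the batch term 41 genes called higher and 36 called lower changed sign. Among those named, SOX9 (-0.18), CCND1 (-0.16), NCL (-0.042) and TSC22D3 (0.61) did so in log2 fold change, TSC22D3 also with the replicate block (0.13). AREG was at 1.46 against the batch 2 Tet library and at -0.49 without it (limma adjusted p = 0.0296). It was at 0.21 against Tet replicates 2 and 3 with no batch term.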
